A study of Mus musculus with 6 samples.

Results

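The genes described here are Hltf and 42 DNA repair genes, grouped as damage tolerance, damage signalling, end joining, recombination with crosslink repair, mismatch repair and excision repair. They were taken by name, and a gene was measured where an array probe set (called a probe here) carried its symbol alone. Of the 43 genes 39 had such a probe, 1 each, out of 14860 genes on 14996 such probes of the array. Atr, Fancd2 and Lig1 had none, and Lig3 was on a probe named for several genes, so these 4 were not analysed here. RNA of the hippocampus came from 3 transgenic mice labelled HGPS (short for Hutchinson-Gilford progeria syndrome, a human premature ageing disorder of lamin A), and from 3 wildtype mice. Every animal was 63 weeks old and had 1 Affymetrix array of its own. The sources used here do not name the transgene, its promoter, the strain or the sex. All values are log2 expression from RMA, a method of background correction, normalization and summary over each transcript's probes, so a difference of 1 is 2-fold. The question was which repair genes differed between transgenic and wildtype hippocampus, and it was tested with limma over all 14996 probes with a false discovery rate of 10%, the rate named for the series.

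DNA repair works through pathways matched to the kind of damage. The kinases ATM and ATR signal breaks and stalled forks, end joining and recombination mend double-strand breaks, and mismatch and excision repair remove wrong or altered bases. Damage tolerance lets replication pass a lesion that has not yet been removed. In that pathway RAD18 attaches ubiquitin to the sliding clamp PCNA, and HLTF, a helicase-like ATPase and ubiquitin ligase related to yeast Rad5, extends the ubiquitin chain and reverses stalled forks. Most neurons of the adult hippocampus no longer divide, so repair there is mainly excision repair, single-strand break repair and end joining.

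In transgenic hippocampus Hltf fell to 51.1% of its wildtype level, and none of the other 38 genes passed the test in either direction. Hltf measured 5.94, 5.97 and 5.74 on the log2 scale in the transgenic animals, against 6.93, 6.83 and 6.80 in the wildtype animals. The groups did not overlap, and the highest transgenic animal lay well under the lowest wildtype animal. Means were 5.88 ± 0.13 in transgenic and 6.85 ± 0.07 in wildtype hippocampus (SD, n = 3 each). The difference was -0.97 ± 0.08 (SE), with a 95% interval of 44.7% to 58.4% of the wildtype level and a limma adjusted p of 0.0239. Of all probes tested, 0.0467% passed in this direction, 7 in number, and 0 passed in the other direction. Under limma, 1592 probes reached an unadjusted p below 0.05. The two-sided exact permutation p was 0.1, the smallest that 3 against 3 can give. In bulk tissue, fewer cells that express a gene and less of its RNA per cell cannot be told apart.

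The size of the Hltf difference varied little with the arrays used, between -1.01 and -0.90 when any 1 array was left out, but the call needed most of them. The adjusted p was 0.126 without transgenic replicate 1, 0.12 without transgenic replicate 2, 0.109 without wildtype replicate 2 and 0.205 without wildtype replicate 3. It was also above the threshold, at 0.111, when all 23332 probes of the table were tested together, and at 0.386 with no variance moderation.

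Wildtype replicates 2 and 3 carried a signal of the Y-linked genes Eif2s3y and Kdm5d, whose mean level was 4.67 to 4.78 in the transgenic animals, 4.63 in wildtype replicate 1 and 8.41 and 8.45 in wildtype replicates 2 and 3. The groups were thus unbalanced in this signal. Hltf was at 6.93 in wildtype replicate 1 and at 6.83 and 6.80 in wildtype replicates 2 and 3. With this signal in the fit the Hltf difference was -1.05 (adjusted p = 0.308), in a fit that leans on wildtype replicate 1, since no other wildtype array lacked the signal. Against wildtype replicate 1 alone it was also -1.05, in a fit whose spread comes from the 3 transgenic arrays, with that single array assumed to vary like them.

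**Figure D1:**
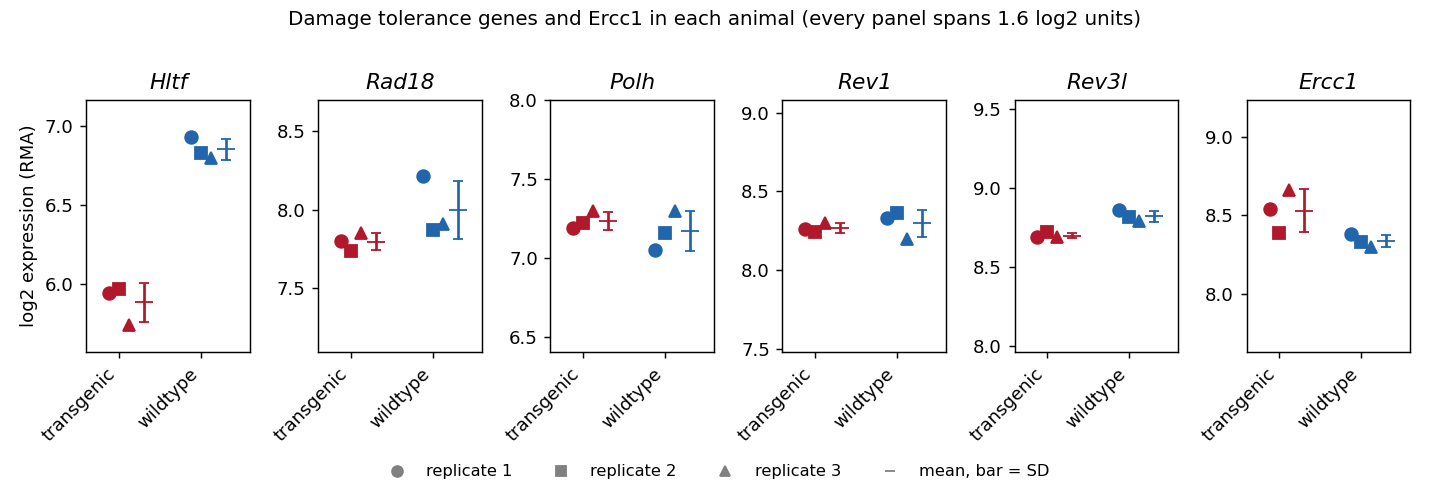
Log2 expression (vertical axis) of the 5 damage tolerance genes and Ercc1 in each animal, transgenic left of wildtype, with 1 symbol per replicate and the mean ± SD beside the points. Hltf separates the groups by nearly 1 log2 unit, while the other 5 genes differ by at most 0.20.

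The genes nearest to Hltf on its chromosome were lower in transgenic hippocampus too. Hltf lies on chromosome 3 and was the sole measured gene of the 39 there. Ordered by position in GRCm38.p6, all 10 measured genes nearest to it, 5 on each side, had negative differences, with a median of -0.57, and 5 of the 10 passed the test, against 0.0467% of all probes. On one side Hps3, a gene of lysosome-related organelle formation, measured 7.71, 7.70 and 7.80 in transgenic animals, against 8.46, 8.43 and 8.44 in wildtype animals. On the other side Gyg, the primer of glycogen synthesis, measured 8.27, 8.47 and 8.38 in transgenic animals, against 9.11, 9.17 and 9.17 in wildtype animals. Neither gene had overlapping groups. Hps3 fell by 0.70 ± 0.06 and Gyg fell by 0.78 ± 0.07 (SE), each with a limma adjusted p of 0.0239. Also past the test were the uncharacterised gene 4632415L05Rik, the phosphodiesterase gene Pde7a and the corepressor subunit gene Tbl1xr1, with differences of -0.94 ± 0.10, -0.74 ± 0.07 and -0.69 ± 0.06. The 5 that did not pass had differences of -0.32 for Dnajc5b, -0.39 for Crh, -0.45 for Cpa3, -0.29 for Cpb1 and -0.26 for Agtr1b. From the sixth to the tenth place on one side, Mtfr1, Armc1, Cyp7b1, Ythdf3 and Car2 had -0.36, 0.04, 0.11, 0.01 and -0.12. On the other side, Nlgn1, Spata16, Ect2, Nceh1 and Tnfsf10 had -0.94, -0.26, -0.32, -0.71 and -0.32. Of these 10 the synaptic adhesion gene Nlgn1 passed the test (limma adjusted p = 0.0226). Hltf and its neighbours in this window thus held all 7 of the 14996 probes past the test, 0.0467%.

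**Figure D2:**
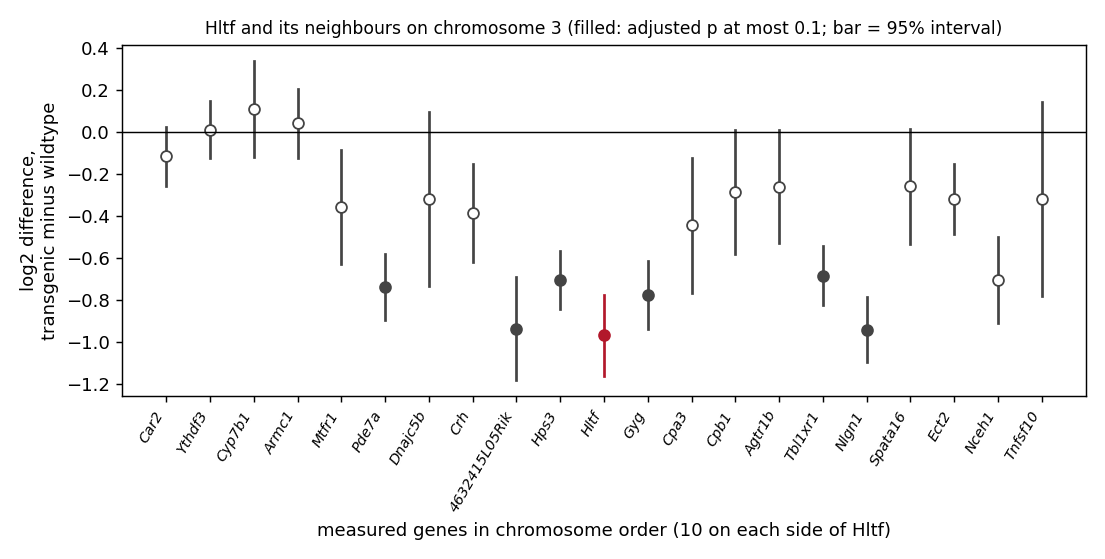
Log2 differences, transgenic minus wildtype, with 95% intervals (vertical axis) for Hltf, in red, and the 10 measured genes on each side in chromosome order (horizontal axis, order only). Filled points have an adjusted p of at most 0.1, and the negative differences run without a break from Mtfr1 through Hltf to the right edge.

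The promoters of Hltf and of its immediate neighbours are shown because these 3 adjacent genes fell together. Each sequence is from RefSeq, build GRCm38.p6, on the gene's own strand, and covers 250 bases before to 50 bases after the start site. Of the 2 Hltf start sites in the table, the one nearest the annotated start of the gene was taken. Capitals mark CCAAT boxes (CCAAT) and GC boxes (GGGCGG), searched on both strands.
Hltf promoter, chr3:20057561-20057860, forward strand: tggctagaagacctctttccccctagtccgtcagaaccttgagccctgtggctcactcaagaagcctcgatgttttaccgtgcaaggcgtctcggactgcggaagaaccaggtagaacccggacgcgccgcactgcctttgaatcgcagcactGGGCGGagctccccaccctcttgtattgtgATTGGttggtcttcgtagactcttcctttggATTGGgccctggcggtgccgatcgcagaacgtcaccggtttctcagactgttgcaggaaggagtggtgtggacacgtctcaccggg
Hps3 promoter, chr3:20035261-20035560, reverse strand: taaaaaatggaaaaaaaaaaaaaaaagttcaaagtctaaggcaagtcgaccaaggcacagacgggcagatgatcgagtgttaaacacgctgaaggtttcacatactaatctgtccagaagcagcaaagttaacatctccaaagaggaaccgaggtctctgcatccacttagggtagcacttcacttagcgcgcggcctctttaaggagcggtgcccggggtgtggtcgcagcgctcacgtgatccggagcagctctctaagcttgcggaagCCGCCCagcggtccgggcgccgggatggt
Gyg promoter, chr3:20155067-20155366, reverse strand: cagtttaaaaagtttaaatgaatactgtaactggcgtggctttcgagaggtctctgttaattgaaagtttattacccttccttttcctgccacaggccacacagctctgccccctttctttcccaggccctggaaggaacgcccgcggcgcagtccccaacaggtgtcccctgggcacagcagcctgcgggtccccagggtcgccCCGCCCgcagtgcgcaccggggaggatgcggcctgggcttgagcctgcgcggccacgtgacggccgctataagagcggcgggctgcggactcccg
The Hltf promoter held 2 CCAAT boxes, both read on the opposite strand as ATTGG, and the other promoters held 0. A GC box was present once in each of the 3. An E2F site, spelled TTTGGCGC, TTTCCCGC, TTTCGCGC or TTTGCCGC and searched on both strands, was in none of them. No overlap between these motifs occurred in the 3 sequences. Among 17492 promoters of protein-coding genes 39.2% held a CCAAT box, 46.3% a GC box and 2.94% such an E2F site. Of the 39 repair genes 31 matched a promoter in the table, of which 18 held a CCAAT box, 21 a GC box and 6 an E2F site. These matches describe letters in a window and were not tested as binding sites.

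Beside Hltf, the damage tolerance genes differed little between the groups. Rad18, the ligase that marks PCNA upstream of HLTF, measured 7.80, 7.74 and 7.85 in transgenic animals, against 8.21, 7.87 and 7.91 in wildtype animals. The groups did not overlap, but wildtype replicate 1 stood well above the other 2 wildtype animals. The Rad18 difference was -0.20 ± 0.10 (SE, limma adjusted p = 0.512), and without wildtype replicate 1 it was -0.09. With the Y-linked signal in the fit, which then rests on wildtype replicate 1, it was -0.41 (unadjusted p = 0.00334, limma adjusted p of nearly 1). Rev3l, the catalytic subunit of the lesion-bypassing polymerase zeta, measured 8.69, 8.72 and 8.69 in transgenic animals, against 8.86, 8.82 and 8.79 in wildtype animals. These groups also did not overlap, by a small margin, with a difference of -0.12 ± 0.06 (limma adjusted p = 0.489). Rev1, the scaffold that recruits bypass polymerases, had a difference of -0.03, and Polh, the polymerase that copies past ultraviolet lesions, one of 0.07, and both had overlapping groups.

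The fixed list of further tolerance genes showed 0 of 11 measured genes past the test in either direction, and 10 of the 11 lay above 0, with a median of 0.04. It holds Shprh, the other mammalian relative of Rad5, which measured 8.68, 8.59 and 8.71 in transgenic animals, against 8.70, 8.62 and 8.54 in wildtype animals. The 3 transgenic values lay within or just above the wildtype range. The Shprh difference was 0.04, with a 95% interval of 92% to 115% of wildtype. Taken within each array, the difference between Hltf and Shprh changed by -1.01 between the groups, with a two-sided exact permutation p of 0.1, the smallest possible. Smarcal1, another fork-reversing ATPase, had a difference of 0.01 ± 0.07 (SE). Ube2n and Ube2v2, whose products form the conjugating enzyme that works with HLTF and SHPRH, had differences of 0.05 ± 0.07 and 0.19 ± 0.13. The interval of Ube2v2, 93% to 141% of wildtype, was the widest of this list on the high side.

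Across the other 38 repair genes the differences were small and their intervals narrow. They ran from -0.20 for Rad18 to 0.19 for Ercc1, with 25 below 0 and a median of -0.04, against a median of 0.00 over all probes tested, of which 50.1% lay below 0. All 38 intervals excluded a 2-fold difference, as did 98.3% of those of all probes. All 38 also excluded 1.5-fold, as did 13784 of the 14996 probes tested. The lowest bound was 74.1% of wildtype, for Rad18, and the highest 135%, for Lig4. Hltf included, 2 of the 39 genes had an unadjusted p under 0.05, a share of 5.13%, against 10.6% of all probes. These were Hltf, lower, against 4.8% of all probes and Ercc1, higher, against 5.81%. Groups did not overlap in 4 genes lower in transgenic animals, against a background of 8.55%, and in 1 higher, against 9.14%. These counts are near or under what all probes gave, so they are no result about repair genes. Relative to the mean of the 38 genes on the same array, Hltf differed by -0.94 between the groups (two-sided exact permutation p = 0.1, the smallest possible).

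**Figure D3:**
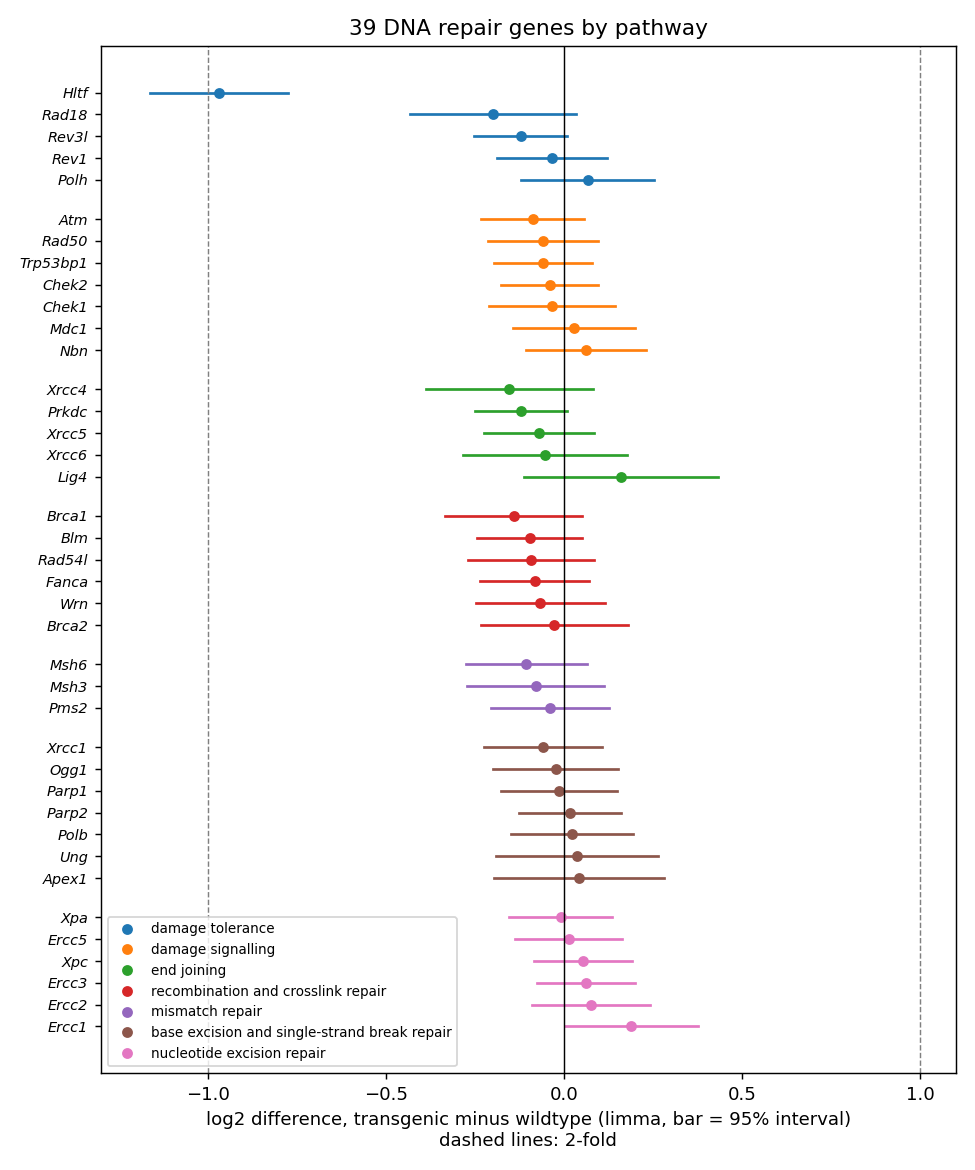
Log2 differences, transgenic minus wildtype (horizontal axis), with 95% intervals from limma for the 39 measured genes, coloured by pathway. Hltf alone lies near the dashed line of a 2-fold decrease, and the 38 other intervals end between -0.43 and 0.43.

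Damage signalling showed no difference past the test, with 5 of 7 genes below 0 and a median of -0.04. Atm, the kinase activated by double-strand breaks, had the smallest p of the group and measured 7.42, 7.29 and 7.30 in transgenic animals, against 7.45, 7.41 and 7.42 in wildtype animals. Transgenic replicate 1 lay within the wildtype range, so the groups overlapped. Its difference was -0.09 ± 0.06 (SE, limma adjusted p = 0.617). Rad50 and Nbn, of the complex that senses broken ends and activates ATM, had differences of -0.06 and 0.06. The checkpoint kinase genes Chek1 and Chek2 stood at -0.03 and -0.04, and the mediators Trp53bp1 and Mdc1, which gather at marked chromatin around breaks, at -0.06 and 0.03. A further list of signalling genes had 12 measured of 15, none past the test, with a median of -0.01. In it Tipin, of the fork protection complex, had -0.17 ± 0.08 without overlap of the groups, and Rad9a, of the checkpoint clamp, had 0.21 ± 0.09 with overlap. Of the 12 genes, 2 were lower and 0 higher without overlap, against 8.55% and 9.14% of all probes.

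In end joining 0 of 5 genes passed, 4 lay below 0 and the median was -0.07. Prkdc, the catalytic subunit of the DNA-dependent protein kinase, measured 7.76, 7.71 and 7.72 in transgenic animals, against 7.87, 7.82 and 7.87 in wildtype animals. All transgenic values lay below all wildtype values, by a small margin. The difference was -0.12 ± 0.06 (SE, limma adjusted p = 0.485), or 84.1% to 101% of wildtype. The genes of the end-binding Ku heterodimer, Xrcc5 and Xrcc6, had differences of -0.07 and -0.05. The ligase gene Lig4 and the gene of its partner, Xrcc4, stood on opposite sides of 0. Lig4 measured 7.83, 8.21 and 8.25 in transgenic animals, against 7.87, 7.94 and 8.0 in wildtype animals. Xrcc4 measured 7.71, 7.64 and 7.88 in transgenic animals, against 8.03, 7.93 and 7.73 in wildtype animals. In both genes the groups overlapped, in Lig4 through transgenic replicate 1. The differences were 0.16 ± 0.12 for Lig4 and -0.15 ± 0.10 for Xrcc4. Of 9 further end joining genes 5 were measured and 0 passed, with differences between -0.17 and 0.03.

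All 6 genes of recombination and crosslink repair lay below 0, between -0.14 and -0.03 with a median of -0.09, and 0 passed. Brca1, which directs broken ends to recombination, measured 5.75, 5.73 and 5.78 in transgenic animals, against 5.93, 6.02 and 5.74 in wildtype animals. Wildtype replicate 3 lay inside the transgenic range and the other wildtype animals above it. Its difference was -0.14 ± 0.08 (SE, limma adjusted p = 0.562), and without wildtype replicate 3 it was -0.22. Brca2, which loads the recombinase, differed by -0.03, and Rad54l, a motor of strand exchange, by -0.09. The helicase genes Blm and Wrn, mutated in Bloom and Werner syndromes in humans, had -0.10 and -0.07, and Fanca, of the Fanconi anaemia core complex, had -0.08. Groups overlapped in each of the 6. Of the 6, only Wrn lay above the dimmest 33.3% of probes, and with a further quantile normalization the median was -0.042. Several of these genes are transcribed mainly in dividing cells, and the 7 measured markers of proliferating cells had a mean level of 6.05 to 6.07 in transgenic and 5.96 to 6.16 in wildtype arrays, with 0 of 7 past the test. The part of dividing cells in these differences was not tested. Of 35 further genes of this pathway 30 were measured and 0 passed, with 21 below 0 and a median of -0.03. The lowest of them was Usp1, which removes ubiquitin from PCNA and FANCD2, at -0.24 ± 0.10 without overlap of the groups. Groups also did not overlap in Recql5, at -0.12, and in Rad51d and Mus81, at 0.15 and 0.09. Of the 30, 2 were thus lower and 2 higher without overlap, against 8.55% and 9.14% of all probes.

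The 3 mismatch repair genes had differences of -0.11 for Msh6, -0.08 for Msh3 and -0.04 for Pms2, and 0 passed. Msh6, whose product recognises single mismatches, measured 6.75, 6.71 and 6.61 in transgenic animals, against 6.81, 6.88 and 6.70 in wildtype animals, with overlap through wildtype replicate 3. The further genes Mlh3 and Pms1 had -0.08 and -0.10, and 2 of the 4 further genes listed were measured.

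In base excision and single-strand break repair the 7 genes stayed closest to 0, between -0.06 and 0.04 with a median of 0.02, and 0 passed. Xrcc1, the scaffold of single-strand break repair, had the smallest p of the group and measured 8.08, 8.06 and 7.89 in transgenic animals, against 8.04, 8.07 and 8.10 in wildtype animals. The single low value was that of transgenic replicate 3, and without this array the difference was 0.00 in place of -0.06. Parp1 and Parp2, the enzymes that sense nicks, had differences of -0.01 and 0.02. The glycosylase genes Ogg1, for oxidised guanine, and Ung, for uracil, had -0.02 and 0.04. Apex1, the endonuclease that cuts at abasic sites, had 0.04 and Polb, the gap-filling polymerase, 0.02.

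Among the 11 further genes of base excision repair 3 had an unadjusted p under 0.05, or 27.3%, against 10.6% of all probes. None of the 11 passed the test. These 3 were the only ones among the 84 further genes measured over all pathways, a share of 3.57%. The flap endonuclease gene Fen1 measured 6.93, 6.92 and 6.91 in transgenic animals, against 6.68, 6.81 and 6.71 in wildtype animals. Neil1, a glycosylase for oxidised pyrimidines, measured 7.15, 7.26 and 7.36 in transgenic animals, against 7.10, 6.94 and 7.13 in wildtype animals. Nthl1, the other main glycosylase for such bases, measured 6.93, 6.96 and 6.75 in transgenic animals, against 7.02, 7.15 and 7.10 in wildtype animals. None of the 3 had overlapping groups, which held for 17.7% of all probes in either direction. They were named for an unadjusted p under 0.05, so this separation is no further evidence. The 2 glycosylase genes for oxidised pyrimidines stood on opposite sides of 0. The differences were 0.19 ± 0.06 for Fen1, 0.20 ± 0.08 for Neil1 and -0.21 ± 0.08 for Nthl1 (SE, limma adjusted p = 0.432, 0.462 and 0.437).

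In nucleotide excision repair 5 of 6 genes lay above 0, at a median of 0.06, and 0 passed. Ercc1, partner of the nuclease that cuts the damaged strand on its 5′ side, measured 8.54, 8.39 and 8.66 in transgenic animals, against 8.38, 8.33 and 8.30 in wildtype animals. The groups did not overlap, but transgenic replicate 2, at 8.39, lay just above wildtype replicate 1, at 8.38. Ercc1 had a difference of 0.19 ± 0.08 (SE, unadjusted p = 0.048, limma adjusted p = 0.469), and without transgenic replicate 3 it was 0.13. The TFIIH helicase genes Ercc2 and Ercc3 had differences of 0.08 and 0.06. The damage sensor Xpc stood at 0.05, the 3′ nuclease Ercc5 at 0.01 and the damage verifier Xpa at -0.01. Of 18 further genes 13 were measured, with 7 above 0, a median of 0.01 and 0 past the test. In that list the TFIIH subunit genes Gtf2h5 and Mnat1 had -0.15 ± 0.07 and -0.16 ± 0.07 without overlap of the groups. Xab2 was higher without overlap, at 0.05. Over all probes 8.55% were lower and 9.14% higher without overlap. Of the same list, Gtf2h1 and Ccnh had 0.105 and 0.063, and Gtf2h3 and Gtf2h4 had -0.094 and -0.035, all with overlap.

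**Figure D4:**
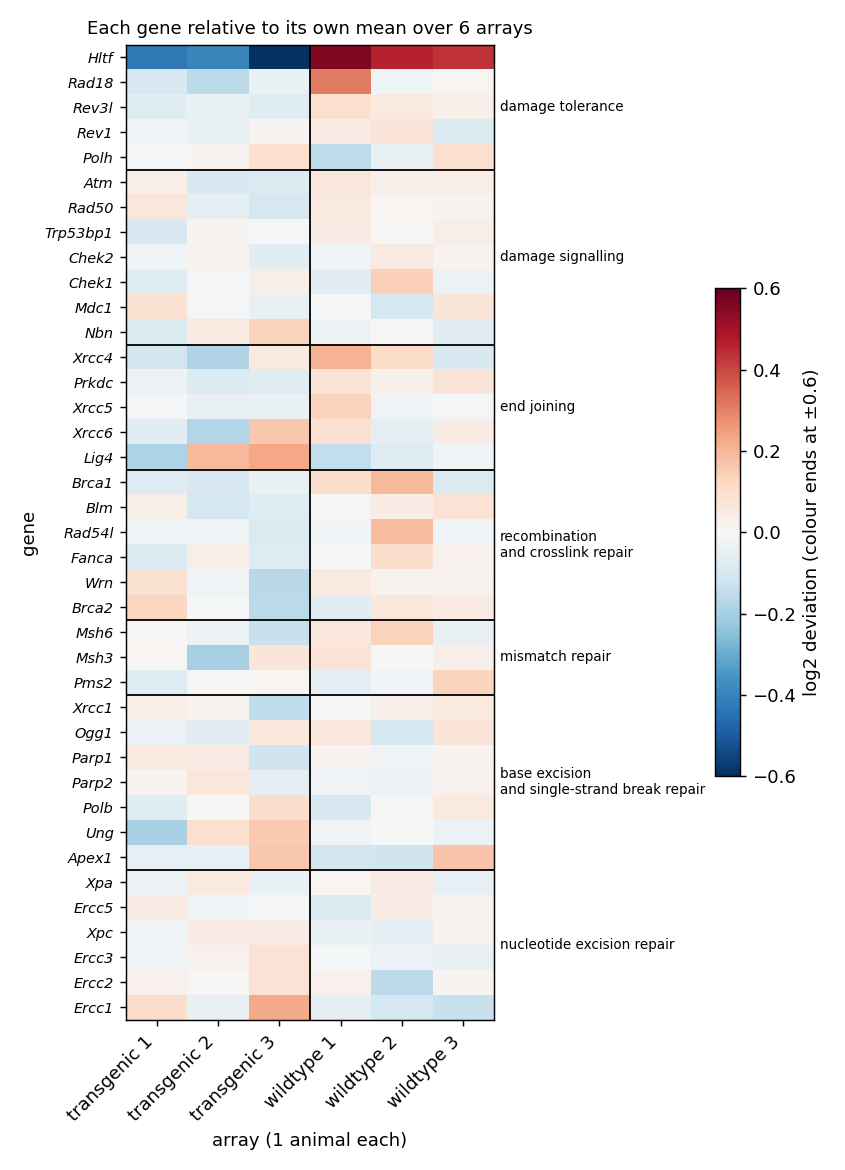
Log2 deviation of each measured gene (rows, grouped by pathway) from its own mean over the 6 arrays (columns, transgenic left), with colours ending at ±0.6. The Hltf row is deeply coloured in all 6 columns and splits by group. Among the paler cells, Rad18 is high in wildtype replicate 1. Lig4 is low in transgenic replicate 1 and high in transgenic replicates 2 and 3, so its row does not split by group.

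Within arrays the 38 genes other than Hltf had a median deviation from their own means of -0.03 to -0.02 in the transgenic and 0.00 to 0.02 in the wildtype arrays. The median residual SD of the 39 genes was 0.081, against 0.098 over all probes tested. Hltf is a dim probe, with a mean level of 6.37 that exceeds 23.1% of the tested probes, and 10 of the 39 genes lay in the dimmest 33.3%, where differences are generally compressed.

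The tissue label was checked against markers. The 7 neuronal genes had a mean level of 10.81 to 10.93 in transgenic and 10.84 to 10.87 in wildtype arrays, and included Prox1 of granule neurons and Wfs1 of CA1 neurons. Markers of meninges and of choroid plexus differed in level among arrays, at 8.94 to 9.20 in transgenic and 8.26 to 8.95 in wildtype arrays for the 7 meningeal genes. The 5 choroid genes stood at 9.18 to 10.03 in transgenic and 8.21 to 9.91 in wildtype arrays. In wildtype replicate 1 the meningeal level was 8.95 and the choroid level 9.91. Wildtype replicates 2 and 3 had meningeal levels of 8.28 and 8.26 and choroid levels of 8.69 and 8.21. The latter arrays also carried the Y-linked signal, so among wildtype arrays that signal and these marker levels cannot be told apart. Endothelial markers, 5 in number, stood at 8.46 to 8.55 in transgenic and 8.08 to 8.30 in wildtype arrays. All 17 genes of these 3 lists had positive differences and 0 passed. An unadjusted limma p under 0.05 was reached by 4 of 5 endothelial, 5 of 7 meningeal and 1 of 5 choroid genes, against 10.6% of all probes. Groups did not overlap, with transgenic higher, in 4 endothelial, 2 meningeal and 0 choroid genes, against 9.14% of all probes. The part of these cells in the differences above, that of Hltf included, was not tested. Microglial markers had 8.26 to 8.41 in transgenic and 8.30 to 8.43 in wildtype arrays. The 4 astrocyte genes stood at 10.16 to 10.27 in transgenic and 10.06 to 10.16 in wildtype arrays. The 4 oligodendrocyte genes stood at 10.57 to 10.83 in transgenic and 10.44 to 10.65 in wildtype arrays. All astrocyte and oligodendrocyte genes had positive differences too, with medians of 0.09 and 0.14, and 0 had an unadjusted limma p under 0.05.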

How the data were processed

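The authors deposited log2 expression values of 23332 probes on 6 arrays, which the submitters' processing notes credit to RMA and the build mm8, with no version or filter stated in the sources used here. Array medians were 7.44 to 7.47. The platform annotation from GEO can be outdated. It named 1 gene for 14996 probes, several for 1019 and none for 7317. Each of the 39 measured genes has 1 probe, and RefSeq tables of GRCm38.p6 gave the chromosome, the gene order and the promoter sequences, and no position was converted from mm8.

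The groups (separate animals, per the labels) were compared in limma 3.58.1 (R 4.3.3, lmFit and eBayes, no covariate), two-sided, with Benjamini-Hochberg adjustment over 14996 probes. The method was tested on simulated data. Exact permutation used all 20 divisions of the arrays. Named by rule were Hltf, Rad18, genes with an unadjusted p under 0.05, the smallest p of each pathway and 5 measured neighbours on each side of Hltf. Other genes of the 84 measured out of 108 further ones, Rev3l, Lig4, Xrcc4 and neighbours beyond the fifth were picked out after their values were seen. Members and lists were chosen with earlier results of these data known. Alternatives concerned the replicate block, normalization, dim probes, moderation, weights, probe choice, the Y-linked signal, thresholds and single arrays.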

Additional observations from a re-analysis of the deposited data

How the results depend on the processing

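The direction of the Hltf difference was negative in all alternatives that held its probe, between -1.05 and -0.90. Hltf passed with the mean of a gene's probes and at a rate of 5%. These settings could hardly change its call, as it has 1 probe and a limma adjusted p of 0.0239. It stayed past a false discovery rate of 10% with a further quantile normalization, median centring, trend and robust estimation, or array weights. It also stayed past that rate without transgenic replicate 3 or wildtype replicate 1. It did not pass at -0.97 with no variance moderation (adjusted p = 0.386) or with all probes (0.111), at -1.05 with the Y-linked signal in the fit (0.308) or without wildtype replicates 2 and 3 (0.602, where the lone wildtype array is assumed to vary like the transgenic ones), or at -0.97 when 2-fold was also required. Leaving out single arrays gave -1.01 to -0.90, and the cause of the lost calls was not tested. Hltf was not in the fit without the dimmest 33.3% of probes. The count of repair genes past the test was therefore 0 in place of 1 in each of these settings, in that fit and in the fit with the replicate block, and 0 to 1 when single arrays were left out.

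With the replicate number as a block the Hltf difference was -0.97 with a limma adjusted p of 0.157, and 0 repair genes passed. In that fit 1 repair gene had an unadjusted p under 0.05, against 12% of all probes. Deviations of same-numbered arrays correlated at 0.186, 0.105 and 0.023, so the numbers were not taken to pair the animals, and transgenic replicate 3 correlated equally with wildtype replicates 2 and 3.

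The number of repair genes with an unadjusted p under 0.05 was 4 with a further quantile normalization and 1 with all probes, against 2. Such a p was reached by 11.1% and 9.18% of all probes in those fits, against 10.6% as reported. Leaving out single arrays gave 1 to 3 repair genes, and 6.82% to 12.6% of all probes. These counts too are near or under what all probes gave. The median over the measured repair genes was -0.023 without the dimmest 33.3% of probes, and -0.045 to -0.027 when single arrays were left out, the last without wildtype replicate 2. By pathway, the median of damage signalling ran from -0.058 to 0.016 over the alternatives, the latter with a further quantile normalization. That of base excision and single-strand break repair ran from -0.024 to 0.032. The medians of damage tolerance with Hltf included, -0.157 to -0.077, and of recombination and crosslink repair, -0.115 to -0.042, stayed negative. Without Hltf the damage tolerance median was -0.077 over 4 genes as reported. Those of end joining, -0.134 to -0.019, and of mismatch repair, -0.122 to -0.052, stayed negative too. That of nucleotide excision repair stayed positive, at 0.038 to 0.081. Xrcc1 ranged from -0.094 to 0.003 when single arrays were left out, turning sign without transgenic replicate 3. Rad18, Ercc1, Prkdc, Atm, Brca1 and Msh6 kept their sign in every alternative that held them and passed in none. Arrays numbered 3 per group, which limits the precision, and the signal of dim probes limits what can be seen of Hltf, Brca1 and Chek2.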
